A study of Mus musculus with 4 samples.

Results

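The miRNAs described here are the mouse assays numbered miR-680 to miR-721, miR-804 and miR-805 on a pair of TaqMan low density array cards, chosen by name alone, with passenger-strand names ending in an asterisk left out. The rule gave 39 of the 517 mouse miRNAs assayed, 8 on card A with 1 well each and 31 on card B with 2 wells each, 70 wells in every sample. A well is read as a threshold cycle (CT), the point in the PCR where its product passes a set level, so a lower CT means more RNA and a difference of 1 cycle is 1 on the log2 scale. Bronchoalveolar stem cells (BASCs) are lung cells of the bronchoalveolar duct junction that carry features of both airway and alveolar epithelium. They had been sorted as CD31-, CD45-, CD34+ and Sca1+ cells from lungs of ICR mice aged 4 to 6 weeks, and plated on irradiated mouse embryonic fibroblasts. For later passages the study names collagen-coated dishes in its results and such fibroblasts in its methods. The 2 control samples are labelled control, and the sources used here also call such cells wild type and do not say whether these 2 carried a control virus. The treatment text of the labels describes the 2 c-Myc depleted samples as carrying a lentiviral shRNA against c-Myc, in stable lines made by puromycin selection, and whether the controls were selected too is not given. Nothing in the labels says that replicates were separate cultures or animals, and the p-values below then measure only the spread between these samples. c-Myc mRNA is not on the cards, so the depletion cannot be read from these wells, and fewer cells of a type cannot be told apart from less RNA per cell.

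MiRNAs are small RNAs cut from hairpin precursors by Drosha and Dicer, which lower the output of mRNAs that pair with their seed, the bases near the 5′ end. The block of numbers from 680 on entered the miRNA catalogue mostly from sequencing small RNAs of mouse tissue, and many of its entries were found in rodents alone. Later annotation placed some of them in other RNA classes. miR-720 is a fragment of a transfer RNA and miR-805 lies in the mitochondrial genome. miR-709 is known as a nuclear miRNA that acts on the primary transcript of miR-15a and miR-16-1, miR-696 is known for lowering PGC-1α in muscle, and miR-690 has been studied in macrophage exosomes. miR-706 resembles part of the rodent B1 repeat, and miR-702 is a mirtron, a hairpin made by splicing without Drosha.

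The RefSeq table of mature mouse miRNAs (assembly GRCm38.p6) held 25 of the 39 under the name of the assay and 5 more (miR-698, miR-700, miR-701, miR-702 and miR-708) only under names of single arms, which the assay names do not settle. The other 9 were not in it: miR-684, miR-685, miR-694, miR-696, miR-699, miR-709, miR-715, miR-720 and miR-805. No sequence or position from it can therefore be given for these. The sequences of the 6 detected miRNAs found under the same name follow with the seed, bases 2 to 8, in capitals, and with miR-130a-3p, from outside the block, for comparison.
miR-690: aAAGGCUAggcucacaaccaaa
miR-704: aGACAUGUgcucugcuccuag
miR-706: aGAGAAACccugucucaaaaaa
miR-692: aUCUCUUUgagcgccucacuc
miR-721: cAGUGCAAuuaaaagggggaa
miR-804: uGUGAGUUguuccucaccugga
miR-130a-3p: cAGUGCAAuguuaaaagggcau
miR-690 and miR-706 are shown for the readings described below, and miR-704 for a steady level near the limit of the assay. miR-692, miR-721 and miR-804 gave a CT only in single wells. Of the 25 matched miRNAs, 2 share a seed with another mature name (miR-686 and miR-721). The seed of miR-721 is that of the miR-130 and miR-301 family, which miR-130a-3p carries in the same place.

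In assembly GRCm38.p6 miR-690 lies at chr16:28599940-28599961 on the minus strand, within the span of Fgf12, a fibroblast growth factor family gene. miR-706 lies at chr6:120034290-120034311 on the minus strand within Wnk1, a kinase gene of ion transport, and miR-704 at chr6:47803590-47803610 on the minus strand within Pdia4, a disulfide isomerase of the endoplasmic reticulum. miR-721 lies at chr5:136375777-136375797 within Cux1 and miR-804 at chr11:50357799-50357820 within Cby3, both on the minus strand. miR-692 has 3 loci, of which 2 overlap pseudogenes of the ferritin light chain (Ftl2-ps and Ftl1-ps1). Of the 30 miRNAs with a locus in the table, 24 have one inside the span of a protein-coding gene. Whether these places are exonic or intronic was not given by the table. Overlap was taken from position alone, so a gene named here may lie on the opposite strand. The first 16 bases of miR-706 were found on either strand in 28 of 32817 mouse promoter windows (250 bases before to 50 after each gene start), which is 0.0853% of them. Across the 1679 mature names, 86 had any match, the median was 0 windows and miR-706 stood 4th. A match here shows only that the same letters occur in these windows.

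The number of miRNAs of the block that gave signal was counted first. Of the 39, 17 came below a CT of 35 in 1 sample or more (43.6%), against 246 of the 478 other mouse miRNAs (51.5%). On card A the share was 2 of 8 (25%), against 172 of 327 others (52.6%), and on card B it was 15 of 31 (48.4%), against 74 of 151 others (49%). Of the 39, 10 were below 35 in every sample (25.6%), against 37.4% of the other miRNAs. The 10 were miR-709, miR-720, miR-805, miR-696, miR-699, miR-690, miR-706, miR-704, miR-700 and miR-685, and miR-685 alone of them is on card A. In control BASCs 13 and 11 of the 39 were detected, and 14 in each depleted sample. No miRNA of the block was detected in both samples of one group and in neither of the other.

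The other 22 miRNAs gave no CT in any well of any sample. On card A these were miR-680, miR-682, miR-683, miR-684, miR-686 and miR-687. On card B they were miR-681, miR-688, miR-691, miR-693-5p, miR-693-3p, miR-695, miR-697, miR-698, miR-707, miR-710, miR-711, miR-713, miR-715, miR-717, miR-718 and miR-719. miR-711 lies within Col7a1, the collagen of anchoring fibrils, and both arms of miR-693 within Xpo5, the exportin of miRNA precursors. After scaling, such an assay still shows a difference, of -0.15 (log2) for card A and -0.72 for card B, which is the change of the reference RNA alone.

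miR-709 had the lowest CT of the block in every sample. Its first well read 22.75 and 22.86 cycles in control BASCs and 21.79 and 21.97 in depleted BASCs, and its second well 22.80, 22.97, 21.86 and 21.95 in the same order of samples. The wells of a pair were at most 0.105 cycles apart, and all 4 depleted readings were below all 4 control readings. Such a gap was common: of the 104 wells for mouse miRNAs on card B with a CT in all samples, 37.5% were read earlier in both depleted samples than in either control and 8.65% later, against 8 and 1 of the 17 such wells of the block. Among the 517 mouse miRNAs of both cards miR-709 stood 2nd in control BASCs and 1st in depleted BASCs by mean CT. The order of assays by CT carries the efficiency of each assay as well as the amount of RNA.

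miR-720, the transfer RNA fragment, read 26.54 and 26.78 cycles in the first well of the control samples and 25.76 and 25.95 in that of the depleted samples, with 26.58, 26.97, 25.86 and 25.95 in the second well. As for miR-709, the groups did not overlap in either well. miR-805, of the mitochondrial genome, read 26.75, 26.86, 26.55 and 26.59 in the first well and 26.64, 26.95, 26.68 and 26.96 in the second. Its first wells did not overlap between the groups and its second wells did.

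miR-690 read 27.64, 27.38, 26.60 and 26.92 cycles in the first well and 27.98, 27.48, 26.82 and 26.96 in the second, so the depleted readings were lower in both wells. miR-699 read 27.42, 27.33, 27.30 and 27.79 in the first well and 27.99, 27.37, 27.56 and 28.00 in the second, and its groups overlapped in both. miR-696 read 26.49 and 26.96 in the first well of the controls and 26.46 in that of depleted replicate 1, and gave no CT there in depleted replicate 2, while its second well read 26.59, 27.30, 26.59 and 27.00. A miRNA read near 27 cycles in 7 of 8 wells thus had 1 empty well.

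miR-706 read 29.96 and 29.25 cycles in the first well of the control samples and 29.84 and 29.86 in the second. In depleted replicate 1 its first well read 28.44 and its second gave no CT, and in depleted replicate 2 the first gave no CT and the second read 28.39. Both depleted wells with a CT were below every control well, and both of the other depleted wells were empty. The RNA was therefore read earlier than in control BASCs in 1 well and not at all in the other well of each depleted sample.

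**Figure D1:**
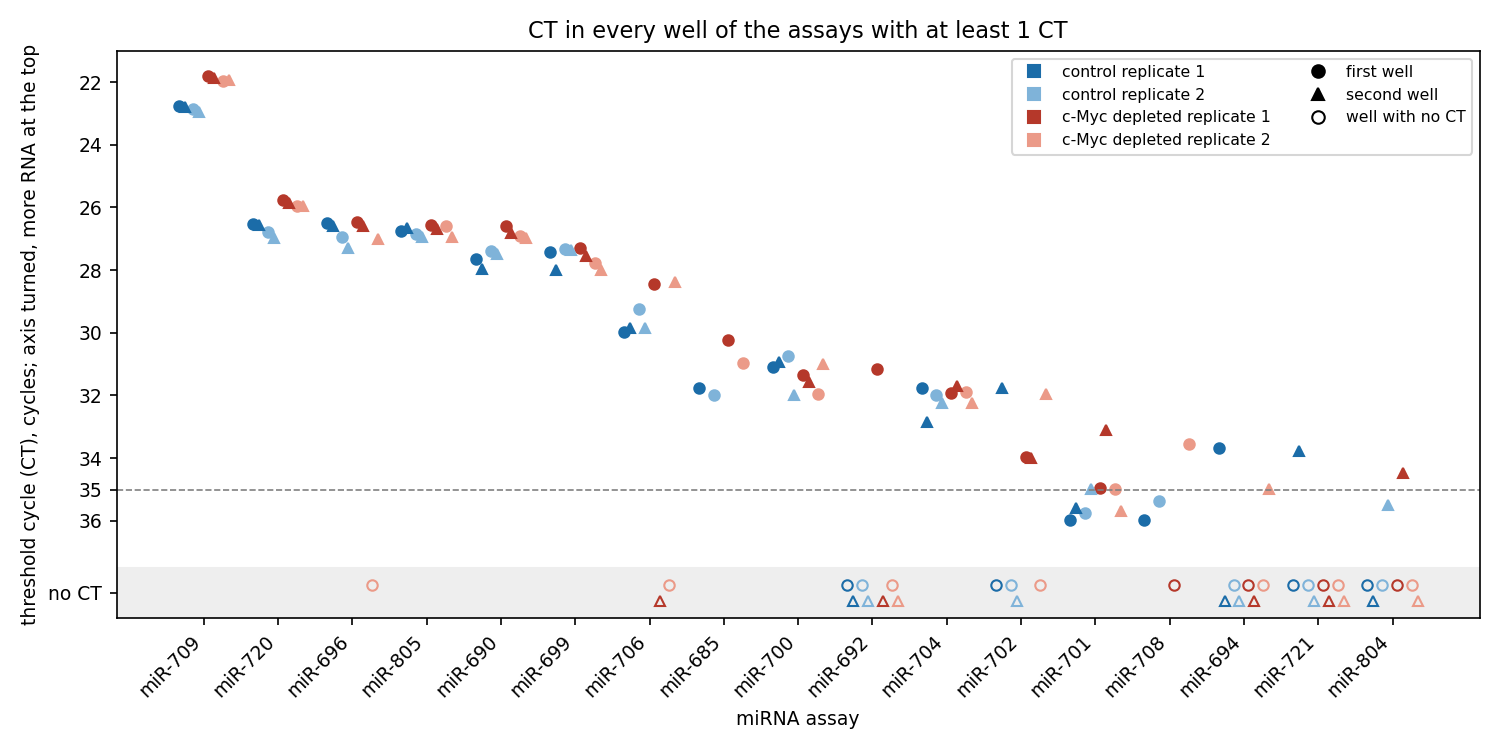
Threshold cycle (y axis, cycles, turned so that more RNA is at the top) in each well of the 17 miRNAs with at least 1 CT (x axis), with colours for the 4 samples, circles for the first well and triangles for the second, and open symbols in the grey band for wells with no CT. miR-709 stands apart near 22 to 23 cycles, and miR-706 has an empty well in each depleted sample beside a well at 28.4.

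The remaining assays with a CT in every sample were closer to the limit. miR-701 read 35.98, 35.75, 34.94 and 34.99 cycles in the first well and 35.58, 34.97, 33.11 and 35.67 in the second. It had a CT in all 8 wells, and only 4 of them fell below 35. miR-704 read 31.78, 31.98, 31.94 and 31.90 cycles in the first well and 32.86, 32.24, 31.69 and 32.25 in the second, with overlapping groups. miR-700, within Rcan3, an inhibitor of calcineurin, read 31.09, 30.73, 31.35 and 31.96 in the first well and 30.92, 31.98, 31.57 and 31.00 in the second, so the groups were apart in the first well and overlapped in the second. miR-685, with its single well on card A, read 31.77 and 31.99 in control BASCs and 30.24 and 30.97 in depleted BASCs. It was the only detected card A assay of the block besides miR-708, which lies within Tenm4 and came below 35 in depleted replicate 2 alone, at 33.54.

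The last 5 detected assays were on card B and gave few readings. miR-702, the mirtron, had a CT in 4 of 8 wells, from 31.76 to 33.99. miR-692 had 1 reading, of 31.16 in depleted replicate 1, and miR-721 had 1, of 33.78 in control replicate 1. These are single wells of an assay whose other 7 wells were empty. miR-694 had 33.66 in control replicate 1 and 34.97 in depleted replicate 2, and miR-804 had 35.51 in control replicate 2 and 34.46 in depleted replicate 1.

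miRNAs of the block led card B. Among its 182 mouse assays the first 6 places by mean CT in control BASCs belonged to miR-709 (22.8 cycles), miR-720 (26.7), miR-805 (26.8), miR-696 (26.8), miR-699 (27.5) and miR-690 (27.6), and the next assay, miR-31*, stood at 27.8. Single control readings of miR-699 (27.99) and miR-690 (27.98) lay past that mean of miR-31*. With empty wells left out, the same 6 led in depleted BASCs, the last of them miR-699 at 27.661, with miR-31* next at 27.669. That lead is smaller than any gap between the wells of miR-699, so this edge of the 6 is not resolved in depleted BASCs. With an empty well counted as 35, miR-696 moved to 13th there and miR-706 from 15th in control BASCs to 34th. The readings of miR-720, miR-805 and miR-696 in control BASCs overlapped between their wells, and so did those of miR-699 and miR-690, so the order inside these groups is not resolved. The distance of miR-709 to the next place was far beyond the gap between wells. Most of the other detected mouse assays of card B carry passenger-strand names ending in an asterisk. Among the 517 mouse miRNAs of both cards, miR-720 stood 20th in control BASCs, miR-805 22nd, miR-696 23rd, miR-699 29th and miR-690 30th.

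**Figure D2:**
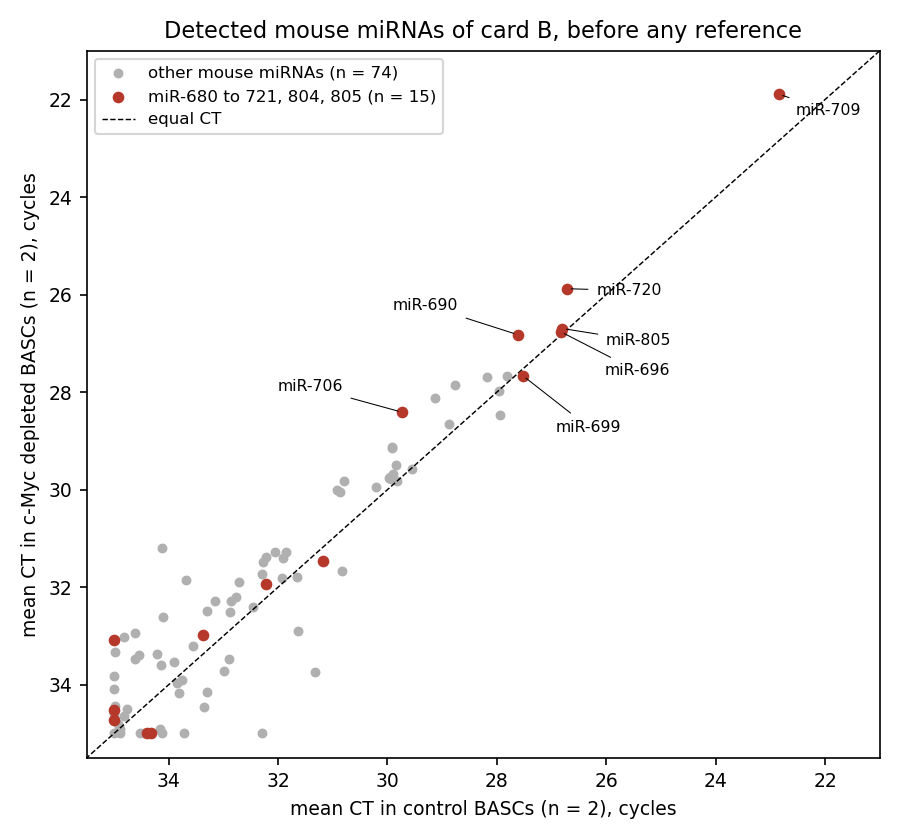
Mean CT in depleted BASCs (y axis, cycles, n = 2) against mean CT in control BASCs (x axis, cycles, n = 2) for the detected mouse miRNAs of card B, wells with no CT left out, both axes turned so that more RNA is up and right; red points are the 15 miRNAs of the block, grey points the 74 others, and the dashed line marks equal CT. The 6 red points furthest to the upper right lie beyond nearly all grey points, and miR-709, miR-720, miR-690 and miR-706 lie above the line.

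Duplicate wells were then compared one pair at a time. Of 124 pairs (31 assays in 4 samples) 38 had a CT in both wells, 75 in neither and 11 in 1 well alone. The 11 split pairs were 22.4% of the pairs with any CT and came from 7 assays, miR-692, miR-694, miR-696, miR-702, miR-706, miR-721 and miR-804. The other mouse assays of card B with 2 wells had 42 split pairs in 24 of 111 assays, 21% of their pairs with any CT. The split pairs differed in where they lay on the CT scale. Among pairs with a CT below 30, 3 of 28 were split for the block (10.7%), 1 of miR-696 and 2 of miR-706, against 0 of 49 for the other assays, where the lowest CT of a split pair was 30.9. The 3 pairs all came from depleted samples. Pairs of 1 assay are not independent, so no test was made.

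Where both wells had a CT, they were close. The median gap within a pair was 0.198 cycles for the block and 0.411 for the other assays, and 0.113 against 0.145 for pairs below 30 cycles. The widest gap was 1.84 cycles, of miR-701 in depleted replicate 1, against 4.7 among the other assays. For miR-706 in the control samples the gaps were 0.121 and 0.609 cycles, and for miR-696 they were 0.105 to 0.348. An empty well replaced by 35 therefore stands far outside the gaps seen for the same assay.

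The comparison of depleted with control BASCs asked which miRNAs moved with the loss of c-Myc, a transcription factor that binds E-box elements with Max. It depends on the reference, and control RNAs moved on both cards. U6, the small nuclear RNA used to scale each card, was read at 19.6 and 19.8 cycles in control and 18.9 and 19.1 in depleted BASCs on card B, so 0.72 cycles earlier after depletion. On card A, run from the same samples, U6 moved by 0.15 cycles, snoRNA135 by 1.07, U87 by 1.14, Y1 by 0.36 and snoRNA202 by -0.17, so the controls did not shift together on either card. The other small RNA controls of card B were read earlier by 1.17 (snoRNA429), 1 (snoRNA202), 0.53 (U87) and 0.40 cycles (Y1), and snoRNA135 by -0.02.

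Before any reference, the change was taken for each well with a CT in all samples. miR-709 was read earlier in depleted BASCs by 0.93 and 0.98 cycles in its first and second well, miR-720 by 0.81 and 0.86, and miR-690 by 0.75 and 0.84, all with groups that did not overlap. These shifts were close to that of U6 on the same card. miR-805 was earlier by 0.24 in the first well and by -0.02 in the second, miR-699 by -0.17 and -0.10, and miR-696 by 0.15 in the well that had a CT in all samples. These readings stayed near 0 while U6 moved. miR-704 was earlier by -0.04 and 0.58, and miR-700 by -0.75 and 0.17, so the wells of either assay disagreed. Both wells of miR-701 moved by 0.90 and 0.89, at CTs around 35. miR-685 on card A was earlier by 1.28 cycles.

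**Figure D3:**
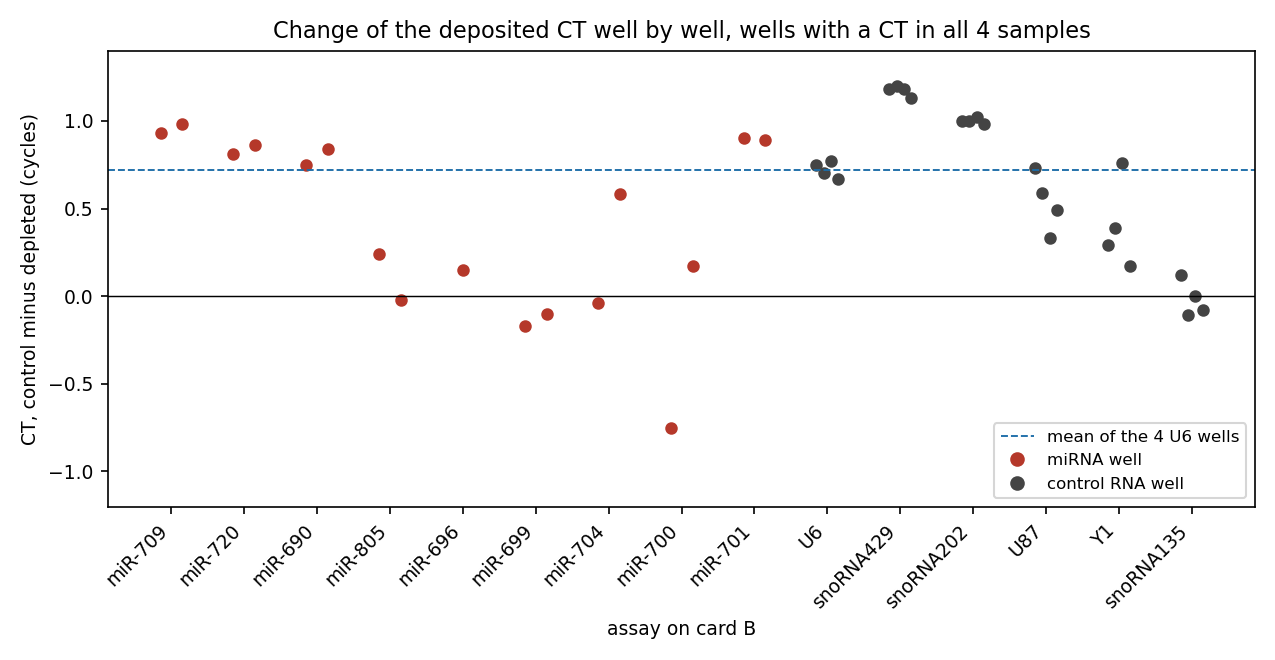
Control minus depleted mean CT (y axis, cycles, n = 2 per group, positive means read earlier after depletion) for each card B well with a CT in all 4 samples, with red points for wells of the miRNAs and dark points for the 4 wells of each control RNA (x axis), and a dashed line at the U6 mean of 0.72. miR-709, miR-720 and miR-690 lie by the U6 line, and miR-805, miR-696 and miR-699 lie near 0 with snoRNA135.

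For the test, an empty well or one past 35 cycles counted as 35, the wells of an assay were averaged, and U6 of the card was taken off to give ΔCT. A log2 change is control ΔCT minus depleted ΔCT and is negative for a lower level after depletion. limma was fitted to the 80 mouse miRNAs whose lowest ΔCT was below 10, and 7 of the block were among them, all on card B. Of the 7, none was higher and 2 were lower at a Benjamini-Hochberg adjusted p below 0.05 (miR-706 and miR-805), and at an unadjusted p below 0.05 the counts were 0 higher and 3 lower. Over all 80 tested miRNAs 25% were called higher and 7.5% lower at the adjusted threshold, and 30% and 8.75% at the unadjusted one. The 2 cards differed in this, since all 20 higher calls were on card A, where no miRNA of the block was tested. Of the 9 other tested miRNAs of card B, 0 were higher and 3 lower in the limma fit. The median log2 change was -0.61 over the 7 of the block, -0.51 over those 9 and 0.05 over all 80. With empty wells left out these medians were 0.07 for the 7 and -0.51 for the 9.

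miR-805 had a ΔCT of 7.15 and 7.06 in control BASCs (mean 7.11 ± 0.0606, SD, n = 2) and of 7.73 and 7.71 in depleted BASCs (7.72 ± 0.0134). Its log2 change was -0.61 (SE 0.12), a 1.53-fold lower level, with an adjusted p of 0.0328 in limma. The mean CT of miR-805 stayed near that of the controls, while U6 on card B was read 0.72 cycles earlier after depletion. Whether miR-805 or U6 changed in amount was not tested. With no reference the log2 change of miR-805 was 0.11, and against the mean of snoRNA135 and snoRNA202 it was -0.38 and not called, while 7.5% of the 80 were called lower. The call was also lost when any 1 of the 4 samples was left out, where the log2 change ran from -0.66 to -0.57. Without control replicate 1 or 2, 21 and 25 of the 80 miRNAs were still called, and without depleted replicate 1 or 2, 1 and 0. Fitted well by well, it was -0.48 in the first well (limma, adjusted p = 0.107) and -0.74 in the second (adjusted p = 0.0274), in a fit that called 5.21% of 96 wells lower.

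miR-706 had a ΔCT of 10.4 and 9.71 in control BASCs (mean 10 ± 0.454, SD, n = 2) and of 12.8 and 12.6 in depleted BASCs (12.7 ± 0.146). Its log2 change was -2.70 (SE 0.28), a 6.49-fold lower level, with an adjusted p of 0.0106 in limma. Each depleted value is the mean of a well at 28.4 and an empty well set to 35. With empty wells left out where the other well had a CT, the log2 change of miR-706 was 0.59 (SE 0.28), the opposite direction, with an adjusted p of 0.204. Over all 80 miRNAs that fit called 25% higher and 6.25% lower, and of the block it called miR-805 alone. Fitted well by well, miR-706 was at -2.83 and -2.56 with adjusted p-values of 0.478 and 0.532 in limma. The call was lost without depleted replicate 1 (-2.60) and without depleted replicate 2 (-2.80), where a single depleted sample remains. Those fits gave every tested miRNA of the block the same SE of 0.99, so the spread used there is not that of miR-706 itself. The direction of miR-706 therefore rests on how an empty well is counted, and why these wells gave no CT was not tested.

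miR-696 had the same trait in 1 sample. Its ΔCT was 6.99 and 7.28 in control BASCs and 7.64 and 11.9 in depleted BASCs, where the last value holds the empty well. The log2 change was -2.65 (SE 1.61, adjusted p = 0.326 in limma), and -0.65 (SE 0.19, adjusted p = 0.0899) with the empty well left out. miR-699 had a ΔCT of 8.16 and 7.5 in control and 8.54 and 8.83 in depleted BASCs, a log2 change of -0.86 (SE 0.29) with an adjusted p of 0.122 in limma. Neither passed the test in these fits.

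The 3 miRNAs that moved with U6 before scaling had small changes after it. miR-709 had a ΔCT of 3.22 and 3.07 in control (mean 3.15 ± 0.11, SD, n = 2) and 2.94 and 2.89 in depleted BASCs (2.92 ± 0.0325), a log2 change of 0.23 (SE 0.13) with an adjusted p of 0.297 in limma. miR-720 had 7.01 and 7.03 (7.02 ± 0.0127) against 6.92 and 6.88 (6.9 ± 0.028), a log2 change of 0.11 (SE 0.11, adjusted p = 0.518 in limma). miR-690 had 8.26 and 7.58 against 7.82 and 7.87, a log2 change of 0.07 (SE 0.28, adjusted p = 0.839 in limma), and its control values lay on either side of the depleted ones. With no reference the log2 changes of these 3 were 0.95, 0.84 and 0.79, and miR-709 and miR-720 were then called higher, as were 32.5% of the 80. Whether miR-709 and miR-720 were called higher, or miR-805 lower, thus depended on the reference.

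**Figure D4:**
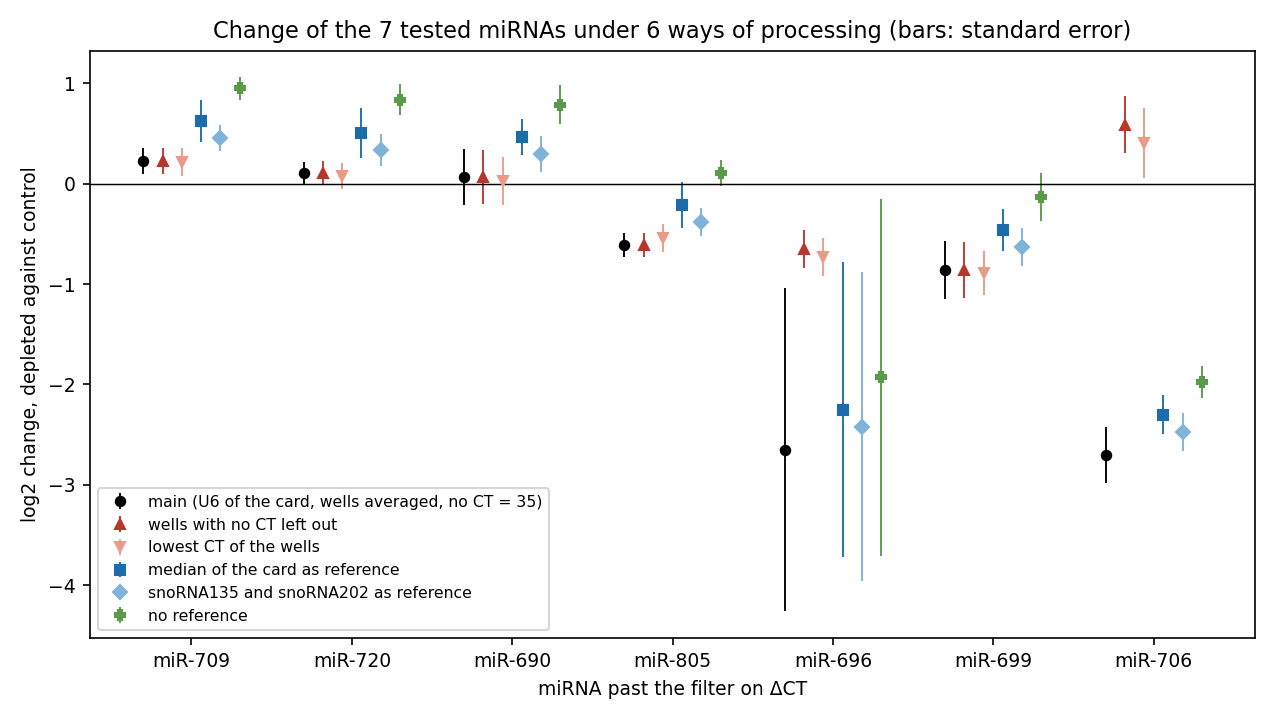
Log2 change of depleted against control BASCs (y axis, bars show the standard error of the limma fit, 2 samples per group) for the 7 tested miRNAs (x axis) under 6 ways of processing, shown by colour and shape. miR-706 lies at -2.70 with empty wells counted as 35 and at 0.59 with them left out, and with empty wells counted as 35 the values without a reference lie above those scaled to U6 for all 7.

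Without the filter on ΔCT, 263 mouse miRNAs were tested and all 17 detected members of the block among them. limma called 0.38% of the 263 higher and 0.38% lower at an adjusted p below 0.05, and none of the 17. At an unadjusted p below 0.05, 1 of the 17 was higher (miR-685) and 5 were lower (miR-694, miR-700, miR-706, miR-721 and miR-805), against 16.3% higher and 9.13% lower of all 263. miR-685 had a ΔCT of 12.9 in both control samples and of 11.4 and 12.1 in the depleted ones, a log2 change of 1.13 (SE 0.34, adjusted p = 0.164 in limma). miR-700 had 11.5 in both controls and 12.6 and 12.4 in the depleted samples, a log2 change of -1.01 (SE 0.19, adjusted p = 0.114 in limma). The low values of miR-694 and miR-721, -1.05 and -1.03, are made of 1 well with a CT in control replicate 1, wells at or within 0.1 of the ceiling elsewhere, and the shift of U6. miR-704 was at -0.45 (adjusted p = 0.406 in limma), and miR-692, miR-701, miR-702, miR-708 and miR-804 lay between -0.59 and 0.58.

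Facts of the whole set bear on these values. Between 334 and 351 of the 768 wells of a sample had a CT, and 22 to 25 of the 70 wells of the block. Of 7 miRNAs typical of epithelium, 1 (miR-200c) was below 35 in all samples and 2 (miR-203 and miR-205) in none, and their summed level corresponded to a CT of 30.1 and 32.4 in control and 34 and 33.4 in depleted BASCs. Of 5 typical of fibroblasts, the cell type of the feeder layer, 4 were below 35 in all samples, with a summed level at a CT of 23.8 in each control and 23.2 in each depleted sample. The endothelial pair was detected in all samples, at 28.8 in each control and at 30.6 and 30.8 in the depleted samples. For blood 1 of 5 was below 35 in all samples (30.6 to 34.9), and for muscle 1 of 4, with miR-1 and miR-133b in none (30.9 to 34.3). BASCs are described as epithelial, and the epithelial miRNAs were at or near the limit in these samples. The part of other cell types in the changes of the block was not tested.

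The deposited CTs also had an uneven fractional part. Of the 1366 CTs of both cards, 44.2% ended between 0.9 and 1 of a cycle, and 5.34% between 0 and 0.1. The miRNAs of the block had 34 of 94 CTs just under a whole cycle in this way (36.2%), with 24% and 34.8% in the control samples and 16.7% and 72.7% in the depleted ones. Depleted replicate 2 therefore had most of its readings of the block just under a whole cycle, as miR-696 (26.9958) and miR-690 (26.9592 in the second well) did. Over all wells of both cards this sample was highest too, at 54.5%, against 42.5% and 47.9% in the control samples and 31.7% in depleted replicate 1. Where this pattern comes from, and its part in the changes, was not tested.

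**Figure D5:**
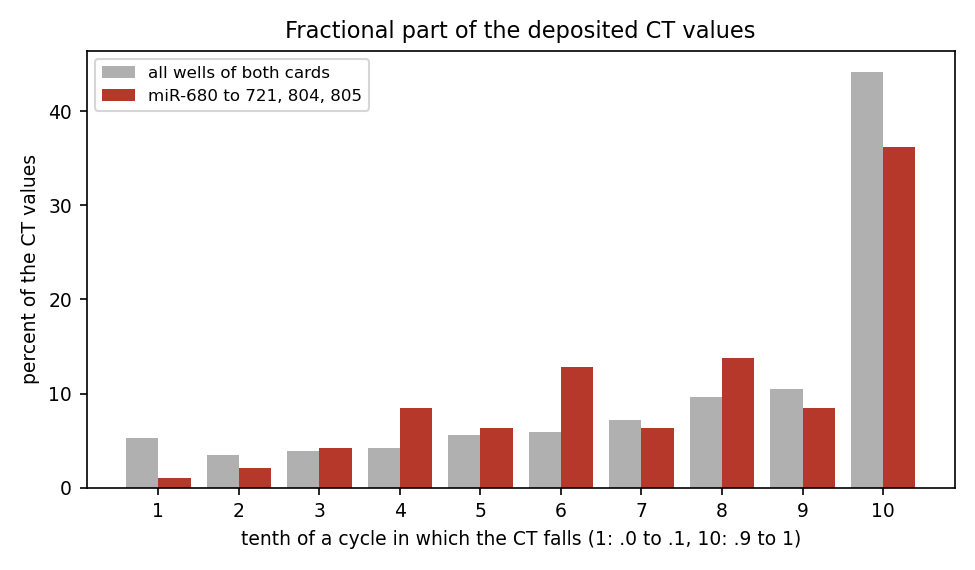
Percent of CT values (y axis, bars from 0) by the fractional part of the CT in 10 steps of 0.1 (x axis), for all 1366 CTs of both cards in grey and the 94 CTs of the miRNAs of the block in red. The last step holds 44.2% of all CTs and 36.2% of those of the block.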

How the data were processed

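Both cards of the TaqMan rodent miRNA array were run by the authors on 2 control and 2 c-Myc depleted samples. The deposited values are threshold cycles (CT) from RQ manager software, in PCR cycles and not normalized, which are log2-like (1 cycle is 1 on the log2 scale). Partek 6.4 is named in the submitters' processing notes. The study's methods set the ceiling of 35, U6 as the reference and a lowest ΔCT below 10; how duplicate wells were joined was not given in the sources used here. Here wells were averaged after the ceiling was applied, and limma 3.58.1 in R 4.3.3 (lmFit, eBayes) was run over the 80 miRNAs that passed this filter, with Benjamini-Hochberg adjusted p-values. Python 3.11.15, pandas 2.3.3 and numpy 2.4.6 prepared the tables. Groups came from the sample labels. A single miRNA tested by exact permutation, 2 samples against 2, could not reach a two-sided p below 0.333. The number of samples limits the precision. On simulated data (20 runs, 400 miRNAs, 100 changed by 1.5 on the log2 scale) the fit of depleted against control recovered 79.6% of changed miRNAs, and 3.84% of calls were false. Whether these 2 rates hold for the miRNAs measured here, with empty wells counted as 35 and U6 read earlier after depletion, was not tested. The miRNAs, marker lists and tests were chosen with earlier results of these data known. Every miRNA of the block is named; readings are given for those past the filter or below 32 cycles in every sample, and single readings of the rest were chosen after they were seen. Alternatives were other references, ceilings, filters, ways of joining wells, tests and samples left out. Leaving out empty wells together with the filter, using no reference, and a crossed pairing were added after seeing the data.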

Additional observations from a re-analysis of the deposited data

How the results depend on the processing

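The count of detected miRNAs (17) ran from 12 to 17 over other limits and from 15 to 17 with each sample left out. The count of assays with a split pair (7) was 8 with a CT above 35 counted as empty and 4 where the other well had to be below 32. The count of calls in the block, 2 lower beside 26 of all 80, moved most. With the card median, snoRNA135 and snoRNA202, U6 pooled over both cards or quantile normalization as the scale, 1 call was left, miR-706, while calls over all 80 went to 5, 18, 14 and 4. With no ceiling, with empty wells left out, with the last well alone, with ΔCT below 10 in all samples or with every well as its own feature, 1 call was left, miR-805, and with the lowest CT of the wells there was 1, miR-699. Over all tested, these settings called 26 of 78, 25 of 80, 24 of 80, 17 of 55, 23 of 96 and 26 of 83, in that order. There were 0 with the first well alone, without the filter, with empty wells left out and no filter, or with one-way ANOVA (20 of 82, 2 of 263, 1 of 263 and 3 of 80 over all tested). In the ANOVA 1 miRNA of the block was higher and 2 lower at an unadjusted p below 0.05, a count not taken over all 80. With each sample left out the count ran from 0 to 2: miR-699 and miR-706 without control replicate 1, miR-706 without control replicate 2, miR-696 without depleted replicate 1 and 0 without depleted replicate 2. The median of both cards gave 2 lower (miR-696 and miR-706), no reference gave 3 (miR-706 lower, miR-709 and miR-720 higher), and the ceiling of 32, the variance trend and card B alone kept miR-706 and miR-805. In the same order, these called 6 of 80, 28 of 80, 26 of 80, 27 of 80 and 5 of 16 over all tested. Both calls of miR-696 above count its empty well in depleted replicate 2 as 35. With that well left out and U6 as the reference, its log2 change was -0.65 and not called.

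The replicate block left 0 calls, of the block as of all 80. Same-numbered samples deviated in opposite directions (correlation -0.44 over 80 miRNAs). With 2 samples per group and a reference shared by the miRNAs of a card, this cannot settle whether the numbers pair the samples. The crossed pairing, chosen after seeing the data, gave 3 calls, and 33 of all 80.

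miR-706 turned to 0.59 with no ceiling and with empty wells left out, with or without the filter, and to 0.41 with the lowest CT. Each of these settings stops counting an empty well as 35 beside a well with a CT. miR-805 turned to 0.11 with no reference, and miR-690 to -0.27 without control replicate 1. Over the settings that gave a value, miR-709 ran from 0.15 to 0.95, miR-720 from 0.08 to 0.84, miR-699 from -1.18 to -0.13 and miR-696 from -4.80 to -0.50, with no turn in direction. CTs near 35 hold little signal over an empty well, which limits what can be said of the 7 detected miRNAs not read below 35 in all samples.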
